A study of Mus musculus with 16 samples.

Results

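The response of mouse neural stem and progenitor cells without KAT7 to 3 days of differentiation was measured in 8 of the 16 RNA sequencing libraries of the study, namely 4 of null proliferating and 4 of null differentiating cells. These libraries were taken by their labels alone and no measured value was used. Null cells had the genotype Kat7lox/lox NesCreT/+. Intact cells, set beside them here, were Kat7+/+ NesCreT/+ and gave 4 proliferating and 4 differentiating libraries. Every group thus carried the NesCre transgene, whose name refers to Nestin, a gene of neural progenitors, and the controls had wild-type and not floxed Kat7. The cells were neurosphere cultures from the cortices together with the ganglionic eminences of foetuses at E14.5, so each culture mixed dorsal and ventral forebrain progenitors. Proliferating cells were taken after 3 passages and 3 days, and differentiating cells 3 days after plating on laminin, in a neuronal culture medium. Neurospheres were replated at 20000 cells per square centimetre at each passage. The deletion preceded differentiation, so null and intact cells did not start from the same expression state.

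KAT7, also called HBO1, is a histone acetyltransferase that works in complexes with BRPF or JADE scaffold proteins. Neurospheres are commonly kept dividing by EGF and FGF, which act through receptor tyrosine kinases and the ERK pathway. On an adhesive substrate without these mitogens, progenitors leave the cell cycle and give rise to neurons, astrocytes and cells of the oligodendrocyte lineage. Proneural factors such as NEUROG2 and ventral forebrain factors such as the DLX proteins start the neuronal programmes, and structural, synaptic and channel genes follow.

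Genes of mitosis and of amino acid supply fell together in the null cells, as described further on, and stretches of promoters are shown so that letters they have in common can be seen. The 3 mitotic promoters were taken from called genes of that list that hold both motifs, and Asns from the integrated stress list. They come from RefSeq on GRCm38.p6, end at the base before the annotated start and are 150 bases long. Capitals mark the CCAAT box (CCAAT) and the cell cycle homology region (TTTGAA) in the first 3, and the C/EBP-ATF response element (TGATGNAA) in the fourth, on either strand.
Cdk1 (chr10:69352913-69353062, minus strand): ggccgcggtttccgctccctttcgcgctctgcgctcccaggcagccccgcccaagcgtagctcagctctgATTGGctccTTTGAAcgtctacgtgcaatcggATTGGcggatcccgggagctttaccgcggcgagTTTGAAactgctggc
Cdc20 (chr4:118437344-118437493, minus strand): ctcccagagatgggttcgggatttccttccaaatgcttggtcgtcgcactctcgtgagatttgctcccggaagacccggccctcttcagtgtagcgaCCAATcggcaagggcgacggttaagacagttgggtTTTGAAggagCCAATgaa
Ube2c (chr2:164769779-164769928, plus strand): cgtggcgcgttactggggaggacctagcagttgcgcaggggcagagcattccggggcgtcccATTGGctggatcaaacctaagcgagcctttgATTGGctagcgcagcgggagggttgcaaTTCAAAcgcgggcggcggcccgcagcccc
Asns (chr6:7693210-7693359, minus strand): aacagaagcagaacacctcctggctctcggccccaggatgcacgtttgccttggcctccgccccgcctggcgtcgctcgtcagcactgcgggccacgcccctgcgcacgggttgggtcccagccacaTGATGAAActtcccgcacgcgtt

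Windows from 250 bases before to 50 bases after a start were searched on both strands, and they were at hand for 22 of the 26 mitotic genes (23 windows). Of these windows, 87.0% held a CCAAT box and 78.3% the cell cycle homology region, against 37.9 and 11.9% of the 14466 windows of the genes tested and 37.4 and 17.9% of all 32851 windows. The E2F letters TTNGCGC stood in 44.0% of 25 DNA replication windows, and in 10.8% of those of the genes tested. TGATGNAA stood in 30.4% of 23 integrated stress windows against 2.3%. The sterol regulatory element TCACNCCAC was in 1 of 20 cholesterol synthesis windows (5.0%, against 1.1%), and the CSL letters TGGGAA were in 31.6% of 19 Notch pathway windows against 23.1%. Matches of different motifs may share bases. In the 250 bases before the start alone, the shares for the cell cycle homology region and the E2F letters were 34.8 and 24.0% of the same lists' windows. Over all genes that fell more than 8-fold in null cells, 34.4% of windows held a CCAAT box and 13.5% the cell cycle homology region.

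Libraries held 16.8 to 47.9 M counts. Kat7, the deleted gene (Entrez 217127; chromosome 11, 95271853 to 95310246 in GRCm38.p6), had 8 counts over the null proliferating libraries and 1 over the null differentiating libraries, against 139 ± 5.59 and 103 ± 3.08 CPM in intact cells (mean ± SD, n = 4). CPM denotes counts per 1000000 counts, with library sizes scaled by the trimmed mean of M values (TMM). Nothing in the labels says which proliferating and differentiating libraries came from 1 foetus. The p-values and standard errors rest on a spread estimated over all 16 libraries in 1 fit, so the scatter of intact libraries enters those of null cells. With the 8 null libraries fitted alone, 5 of 150 named genes gained a call in null cells and 0 lost one. The libraries of 3 cultures stood apart from their groups. Null proliferating replicate 4 differed from the other 3 null proliferating libraries by a chi-square of 39.6 to 57.4 per gene, while these differed among themselves by 3.01 to 16.6. Intact proliferating replicate 1 lay at -7.60 on the first principal component and its group otherwise between -72.0 and -65.8. Intact differentiating replicate 1 differed from the other 3 libraries of its group by a chi-square of 97.1 to 209.7 per gene. These differed among themselves by 15.4 to 40.6. Results below are given without them where that changed a call or moved a fold change printed here by more than 1.5 times. Group means are given with all libraries only.

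In the null cells 5248 genes rose and 5220 fell over the 3 days (34.6 and 34.4% of the 15177 tested, edgeR's quasi-likelihood test, adjusted p under 0.05). More than 8-fold changes were seen for 583 risen and 331 fallen genes (3.84 and 2.18%). The libraries of the 2 groups did not overlap for 10167 genes (67.0%). The median log2 fold change of all genes was 0.02. Without null proliferating replicate 4, 5251 genes rose and 5111 fell. Since 69.0% of genes were called in either direction, a list is described below by its counts and its median and not by the bare fact that members changed. Counts near 34.6 and 34.4% of a list are no result about its members. Bulk libraries cannot tell fewer cells of a type from less RNA per cell.

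Most of the response was shared with intact cells, in which 5566 genes rose and 5360 fell (36.7 and 35.3%, and 72.0% in either direction). The 2 responses have no library in common. Across the tested genes their log2 fold changes had a Pearson r of 0.762 and a Spearman rho of 0.790, a description over genes, which are not independent. Of the genes that rose in null cells, 75.9% also rose in intact cells (these are 71.5% of the intact list), and of those that fell, 80.6% also fell (78.5% of the intact list). How far large changes were shared depended on whose list was taken. Of 583 genes that rose more than 8-fold in null cells, 542 (92.97%) also rose in intact cells, and of 331 that fell as far, 264 (79.8%) also fell. The order was the reverse from the intact side. Of 428 genes that fell more than 8-fold in intact cells, 407 (95.1%) also fell in null cells. Of 834 genes that rose more than 8-fold in intact cells, 539 (64.6%) rose in null cells, 282 (33.8%) passed no test and 13 fell. The 282 genes that passed no test had medians of 0.0462 and 0.109 CPM in null proliferating and differentiating cells, and 0.266 and 5.89 CPM in intact ones. Of them 246 (87.2%) were under 1 CPM in null differentiating cells, against 27.1% of the 539. The intact rise chose these genes, and at such null levels a call was hardly possible, so their low level is no separate result. The 64.6% was 58.4% with null cells fitted alone, 70.7% with a replicate block and 48.2% at a minimum count of 50. Genes dropped by a filter count there as not risen. The difference of the responses itself was called for 79 of the 282. Over all genes the null response was higher than the intact one for 1935 and lower for 1507 genes (12.7 and 9.93%). Without both intact replicates 1 it was higher for 2488 and lower for 2104, and 69.5% of 946 genes raised over 8-fold in intact cells rose in null cells.

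**Figure D1:**
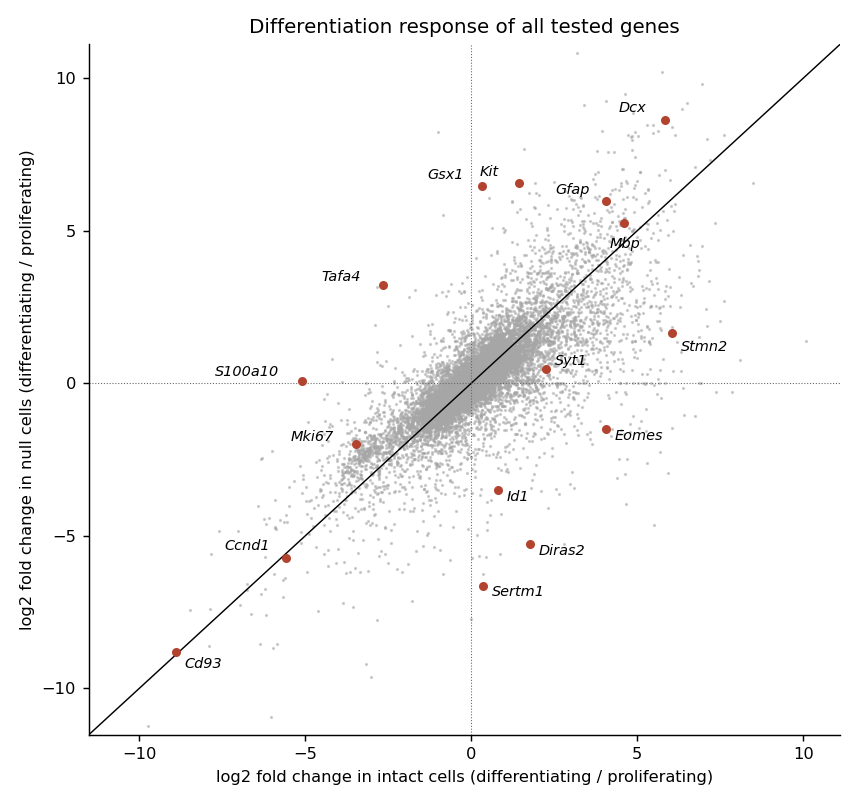
Log2 fold change from proliferating to differentiating cells of every tested gene in intact cells (horizontal axis) and in null cells (vertical axis), with the line of equal change. Labelled genes are described in the text; genes near the horizontal zero line at the right, such as Stmn2 and Syt1, had a large intact and a small null log2 fold change.

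Genes of the ERK response to mitogens were among those that null cells switched off most deeply. Dusp6, a phosphatase that dampens ERK, stood at 225, 245, 253 and 396 CPM in null proliferating replicates 1 to 4 and at 4.43, 3.89, 5.302 and 5.25 CPM in null differentiating replicates 1 to 4. All differentiating libraries were far below all proliferating ones, a log2 fold change of -5.88 ± 0.51 (SE, edgeR adjusted p = 1e-07). Spry4, a Sprouty inhibitor of receptor tyrosine kinase signalling, went from 197 ± 32.4 to 4.08 ± 0.744 CPM (-5.58 ± 0.38). The ETS factor gene Etv5 fell from 521 ± 19.3 to 49.8 ± 10.7 CPM and the immediate early gene Egr1 from 206 ± 65.3 to 28.8 ± 4.81 CPM. Of 26 ERK feedback and immediate early genes, 19 fell and 1 rose (median log2 fold change -1.62, against -1.62 in intact cells). The riser was Fos, at 14.98 to 32.8 CPM in the proliferating and 34.6 to 78.3 CPM in the differentiating null libraries (1.37 ± 0.39, edgeR adjusted p = 0.0056).

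Cyclin D1, the mitogen-dependent G1 cyclin, showed one of the deepest falls of an abundant transcript. Ccnd1 (Entrez 12443; chromosome 7, 144929931 to 144939831 in GRCm38.p6) was at 1717, 1680, 1703 and 2715 CPM in the null proliferating and at 33.2, 35.1, 43.7 and 36.7 CPM in the null differentiating libraries. The groups lay far apart, with a log2 fold change of -5.71 ± 0.26 in null and -5.58 ± 0.26 in intact cells. All 26 mitosis and spindle genes fell (median -2.74), and so did all 26 DNA replication genes (median -1.93), with no overlap between the groups of libraries for 26 and 26 of them. Cdk1, the kinase that drives entry into mitosis and whose promoter is shown above, fell from 272 ± 28.3 to 30.3 ± 2.15 CPM (-3.17 ± 0.13). Cdc20, an activator of the anaphase-promoting complex, fell by 3.57 and Ube2c, a ubiquitin-conjugating enzyme of the same complex, by 2.81 on the log2 scale. The replication licensing gene Mcm3 fell by 2.500 and Gins2, part of the replicative helicase, by 2.64.

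The fall was smaller than in intact cells. The difference of the responses was called higher for 22 of 26 mitotic and 19 of 26 replication genes and lower for none of either list (edgeR adjusted p under 0.05). For mitotic genes null cells both started lower and ended higher. The mean log2 CPM over that list was 7.08 to 7.38 in null and 7.51 to 7.70 in intact proliferating libraries. In differentiating libraries it was 4.46 to 4.72 and 3.86 to 4.39. For replication genes the starts overlapped (6.26 to 6.75 and 6.43 to 6.74), and the ends were 4.45 to 4.82 and 3.92 to 4.09. Mki67, a marker of cycling cells, was left at 124, 111, 116 and 116 CPM in the null differentiating libraries, against 71.6, 52.8, 53.01 and 38.9 CPM in the intact ones, which was lower in every library. Its log2 fold change was -1.996 ± 0.17 in null and -3.47 ± 0.18 in intact cells (difference 1.47 ± 0.23, adjusted p = 0.00052). Mcm3 was at 37.6 to 53.7 against 15.7 to 23.3 CPM. Oppositely to the cyclins, the N-myc gene Mycn rose in null cells from 8.67 ± 3.698 to 29.1 ± 6.89 CPM, and Rb1, the retinoblastoma protein gene, rose by 0.68 on the log2 scale.

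CDK inhibitors split by gene. Cdkn1c, encoding p57, rose from 6.001, 6.47, 7.198 and 3.66 CPM in the proliferating to 63.9, 68.4, 80.6 and 84.5 CPM in the differentiating null libraries, without overlap (3.69 ± 0.36, edgeR adjusted p = 3.4e-07), more than in intact cells (difference 1.799 ± 0.46, adjusted p = 0.012). Cdkn1a, encoding p21 and a main p53 target, fell from 366 ± 111 to 41.4 ± 5.82 CPM (-3.15 ± 0.31), less far than in intact cells (-5.07 ± 0.35; difference adjusted p = 0.0048). Cdkn1b, encoding p27, was at 93.9 to 150.4 and 119 to 139 CPM and passed no test, except without null proliferating replicate 4 (-0.20, adjusted p = 0.007). Of 28 p53 target genes 21 fell and 4 rose (median -1.301), against 23 and 3 in intact cells (median -1.66). The fallen ones included Ccng1 (-1.83 ± 0.17), Bax (-1.28 ± 0.10) and the death receptor gene Tnfrsf10b (-2.87 ± 0.26). That list also holds Ccnd1, the G1 cyclin gene described above, and Gtse1, and these had its lowest adjusted p-values. Btg2, an antiproliferative gene of early neurogenic divisions, rose from 151 ± 8.25 to 354 ± 42.7 CPM in null cells, and its difference from the intact response was 1.59 ± 0.29 (adjusted p = 0.0015).

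**Figure D2:**
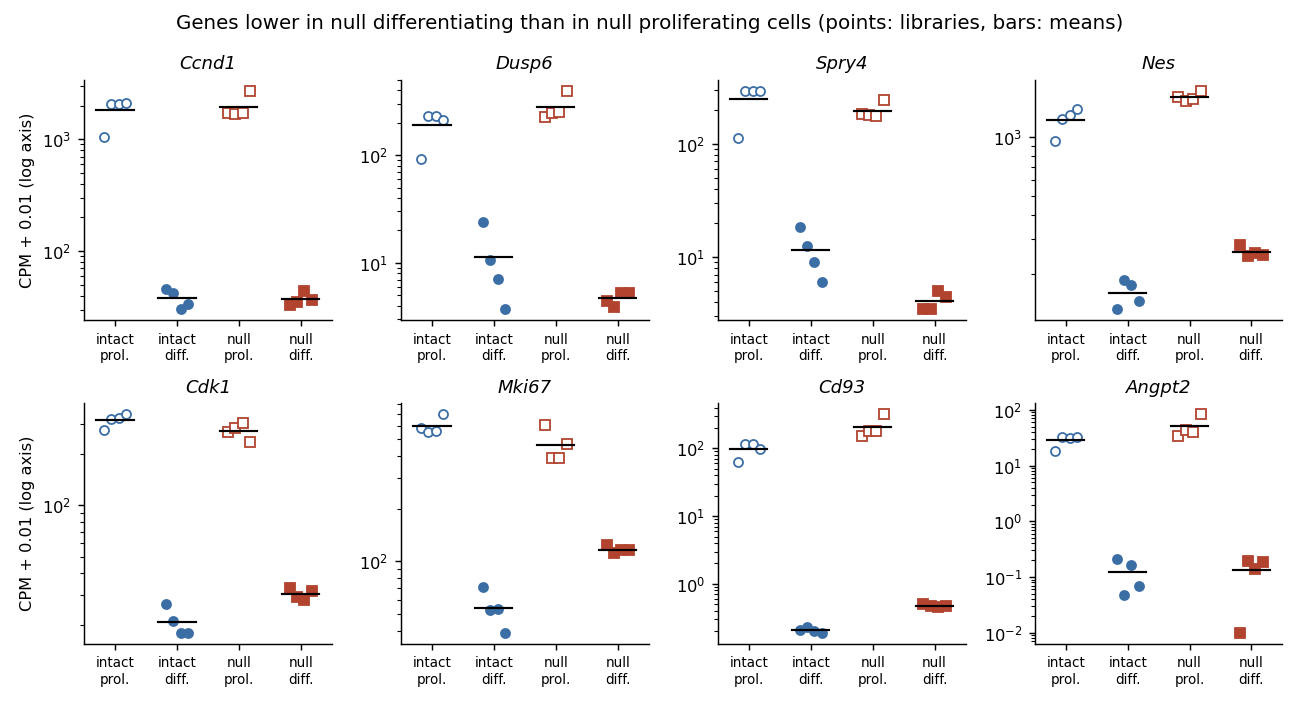
CPM (log axis, 0.01 added so that 0 can be drawn) in each library of the 4 groups for 8 genes that null cells switched off; points are libraries and bars group means. In every panel the 4 null differentiating libraries lie below the 4 null proliferating ones.

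Genes known from vessels and from matrix were among the deepest falls. Cd93, a receptor known from endothelium, was at 150.2, 182, 181 and 317 CPM in the null proliferating libraries and at 0.488, 0.4596, 0.447 and 0.464 CPM in the null differentiating ones, a fall of 444-fold (-8.796 ± 0.31, edgeR adjusted p = 3.6e-11). Angpt2, an angiopoietin ligand of the TEK receptor, went from between 34.3 and 82.8 to between 0 and 0.184 CPM. Tnfsf18, a cytokine of the TNF family, had 1164 counts in the proliferating and 0 in the differentiating null libraries, at least 532-fold lower with a floor of 3 counts over the group. The integrin subunit gene Itga4 (-6.89), the matrix glycoprotein gene Fbln2 (-7.002), the procollagen protease gene Adamts14 (-7.58), the annexin gene Anxa3 (-7.42) and Spp1, encoding osteopontin (-6.78), fell as well (log2 fold changes). Rab26, a small GTPase of vesicle transport, fell from between 51.00 and 99.1 to between 0 and 0.0613 CPM, and Cpne7 (-8.56) and Clic5 (-7.47) were also among the largest falls. For Tnfsf18, Rab26, Cd93, Angpt2 and Clic5 null proliferating replicate 4 was the highest library of its group, at 33.8 CPM for Clic5 against 5.02 to 7.34 CPM in the other 3. The fall of Clic5 was -6.42 on the log2 scale without it, and -8.35 without null differentiating replicate 2. The 8 endothelial markers summed to 1.48 to 2.44 CPM in the proliferating and 0.766 to 1.05 CPM in the differentiating null libraries. Of the 5 that could be tested 3 fell and 1 rose (median -1.71). Cldn5 had 16 and 2 counts over the null groups, and Cdh5 and Tie1 had 0 counts in all null libraries. The part of such cells in these falls was not tested. Microglial markers summed to at most 0.575 CPM, with Aif1 and C1qa at 0 counts in all null libraries, and 3 of 4 blood markers in the files to at most 1.16 CPM.

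Contractile and matrix genes moved in the same direction in part. Acta2, smooth muscle actin, was at 33.3, 43.3, 40.2 and 122 CPM in the null proliferating and 4.85, 1.93, 1.26 and 4.06 CPM in the null differentiating libraries (-4.32 ± 0.47, and -3.697 without null proliferating replicate 4), and Tagln fell by 4.66. Of 12 tested genes of that list 8 fell and 0 rose, with 16 listed (median -0.75, -0.86 in intact cells). Markers of mural cells and meninges did not fall as a group. Of 8 tested, 4 rose and 1 fell in null cells (median 2.49), against 7 and 1 in intact cells (median 2.96). The 9 listed summed to 30.8 to 45.2 CPM in the proliferating and 41.9 to 60.8 CPM in the differentiating null libraries. Of 31 matrix and integrin genes 14 fell, such as the fibronectin receptor subunit Itga5 (-3.23) and the laminin chain Lama5 (-1.92), and 10 rose, such as Sparc (1.71) and Timp3 (1.59). The median of that list was -0.45 in null and -0.22 in intact cells. Tnc, the matrix protein of the stem cell niche, fell from 1159 ± 137 to 115 ± 36.5 CPM, further than in intact cells (difference -1.95 ± 0.31, adjusted p = 0.00055).

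Supply and energy genes fell as broad groups. All 24 oxidative phosphorylation genes fell (median -0.90, -0.73 in intact cells), among them Cycs, cytochrome c (-1.89 ± 0.10), and Cox5a (-1.39 ± 0.09). The mean log2 CPM over this list was 8.09 to 8.31 in null and 7.58 to 7.75 in intact proliferating libraries. In differentiating libraries it was 7.17 to 7.28 and 6.90 to 7.02, so null cells started and ended higher. Of 28 ribosomal protein genes, whose reads can be shared with processed pseudogenes, 25 fell and none rose (median -0.55), and 5 fell by the test against a minimum change of 1.5-fold. In glycolysis and hypoxia 14 of 23 fell and 6 rose (median -1.05, -0.77 in intact cells), with lactate dehydrogenase Ldha at 656 ± 28.4 and 121 ± 21.96 CPM (-2.44 ± 0.11). Rising members were Bnip3, a mitophagy receptor (1.68), and Hk1, the hexokinase of brain (0.66). Lysosome and autophagy genes went the other way, with 16 of 24 higher and 2 lower (median 0.58), such as Ctsl (0.92), Ulk1 (1.13) and Wipi1 (1.84). In the test against 1.5-fold these were 8 and 1. Without null proliferating replicate 4 or null differentiating replicate 1 or 2, 1 was lower.

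Sterol synthesis fell in null cells more than in intact cells. Of 25 cholesterol synthesis genes 24 were lower and 0 higher (median -0.97), against 18 in intact cells (median -0.38). The difference was called lower for 15 of them and higher for none. Hsd17b7, a reductase of the pathway, was at 62.2, 59.1, 65.6 and 58.8 CPM in the null proliferating and 28.1, 24.3, 28.9 and 28.5 CPM in the null differentiating libraries, with no overlap (-1.16 ± 0.08, edgeR adjusted p = 1.2e-08). Cyp51, the lanosterol demethylase, fell from 504 ± 54.2 to 228 ± 22.7 CPM in null cells and was at 496 ± 20.99 and 391 ± 62.7 CPM in intact ones (difference -0.80 ± 0.16, adjusted p = 0.0027). Hmgcs1, an early enzyme of the pathway, passed no test in null cells (-0.21 ± 0.12, adjusted p = 0.15). Of 25 genes of the integrated stress response and serine synthesis 19 fell and none rose in null cells (median -1.44, -0.78 in intact cells), and the difference was called lower for 7. The mean log2 CPM over this list was 6.26 to 6.85 in null and 5.28 to 5.79 in intact proliferating libraries. In differentiating libraries it was 4.83 to 5.20 and 4.51 to 5.13, so null cells fell from a higher start to overlapping levels. Members that rose numbered 2 without null proliferating replicate 1 and 1 with library size or relative log expression scaling. Asns, asparagine synthetase, fell from 116 ± 38.7 to 17.97 ± 3.44 CPM (-2.69 ± 0.28; difference -1.64 ± 0.38, adjusted p = 0.0067), and Atf4, the transcription factor of this response, by 1.48. The cystine transporter gene Slc7a11 stayed at 157 to 297 and 184 to 259.7 CPM and passed no test. Of 16 unfolded protein response genes 11 fell and 3 rose (median -0.86, -0.18 in intact cells), with the chaperone Hspa5 at -1.18 and the difference lower for 9.

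**Figure D3:**
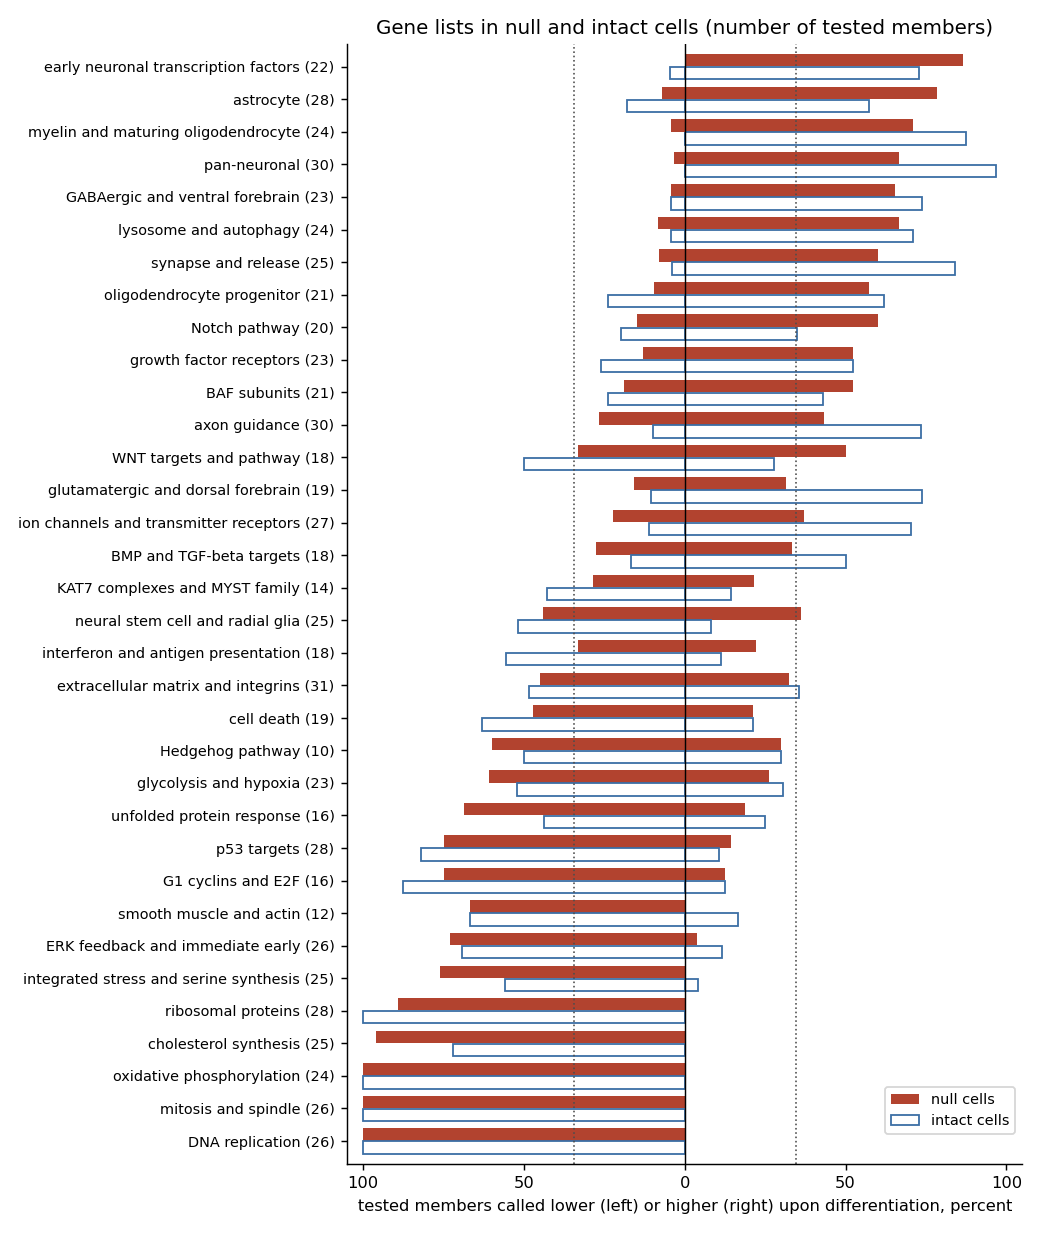
Share of the tested members of each gene list that were called higher (right of 0) or lower (left of 0) upon differentiation, in percent, in null cells (filled bars) and intact cells (open bars). Mitosis, DNA replication and oxidative phosphorylation lie wholly on the lower side in both; glutamatergic, synapse and channel lists reach further right in intact cells. The dotted lines mark the shares over all tested genes in null cells.

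Transcription factors of early neurons rose in cells without KAT7. Of 22 tested, 19 rose and none fell (median 3.53, 2.17 in intact cells), and 3 of the 25 listed (Neurog1, Neurod4, Onecut1) were too low to be tested. The difference of the responses was called higher for 8 and lower for 0. Null cells started lower, with a mean log2 CPM over the list of 0.52 to 0.94 against 1.74 to 2.88 in intact proliferating libraries. Every null differentiating library (3.74 to 4.13) also ended below every intact one (4.22 to 5.05). Neurog2, a proneural factor of the dorsal forebrain, went from 0.105, 0, 0.0416 and 0.198 CPM in the proliferating to 6.31, 12.2, 9.67 and 4.93 CPM in the differentiating null libraries, every one above the proliferating libraries (6.29 ± 0.94, edgeR adjusted p = 2.4e-05, and 7.07 without null proliferating replicate 4). In intact cells it started from 0.135 to 3.198 CPM and reached 4.44 to 8.93 CPM, so the levels reached overlapped. Nhlh1, a helix-loop-helix factor of newborn neurons, had 0 counts in all null proliferating libraries and 3.25 to 6.77 CPM in the differentiating ones, at least 186-fold higher. Scrt2, a zinc finger repressor of migrating neurons, had 5 counts over the null proliferating libraries and 15.8 to 18.5 CPM in the differentiating ones. Myt1, a zinc finger factor, rose from 25.5 ± 3.005 to 273 ± 42.8 CPM and Sox4 from 334 ± 43.98 to 1052 ± 81.97 CPM, both by more than in intact cells (differences 1.899 ± 0.30 and 0.72 ± 0.16, adjusted p = 0.00058 and 0.0047). Myt1l, a factor that holds neuronal fate, rose in null cells from 0.0891 ± 0.0362 to 5.56 ± 1.87 CPM but reached 119 ± 129.6 CPM in intact ones. Its log2 fold changes were 5.81 ± 1.33 and 6.03 ± 0.91 and the difference was not called (adjusted p = 0.97). The intact value moved to 8.08 without intact proliferating replicate 1 and to 4.93 without intact differentiating replicate 1.

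GABAergic genes of early ventral forebrain neurons rose in null cells, several of them to levels within or above the intact range. Dlx5, a homeobox factor of ventral forebrain, had 1 count over the null proliferating libraries and 11.7, 8.98, 13.5 and 16.5 CPM in the null differentiating ones, against 7.899, 4.47, 10.8 and 2.997 CPM in intact differentiating libraries, a range that overlaps. Its null proliferating level was 0.07496% of the differentiating level (95% counting interval 0.001898 to 0.418%). Gad2, a GABA synthesis enzyme, went from 2 counts over the group to 10.4, 8.18, 6.58 and 7.63 CPM, and Slc32a1, the vesicular GABA transporter, from 0.04995 ± 0.0522 to 12.1 ± 3.097 CPM (8.11 ± 1.19, or 8.79 without null proliferating replicate 2). Dlx2 reached 62.1 to 142 CPM in null and 9.92 to 37.4 CPM in intact differentiating libraries, and Sp9 52.6 to 79.96 against 4.59 to 15.8 CPM. Of 23 genes tested 15 rose and 1 fell (median 3.67, 3.72 in intact cells). Without null proliferating replicate 4, and in the test against 1.5-fold, 0 fell. The responses of 2 members of the list differed between the genotypes. Gsx1, a ventral progenitor factor, rose from 0.314, 0.247, 0.541 and 0.652 to 48.6, 49.5, 31.1 and 33.1 CPM in null cells (6.45 ± 0.58) and stood at 0.9002 to 3.101 and 0.899 to 5.44 CPM in intact cells (difference 6.15 ± 0.74, adjusted p = 8.8e-05). Sp8, a zinc finger factor of ventral progenitors, passed no test in null cells (3.21 to 6.44 and 3.104 to 9.45 CPM) and rose in intact ones (2.66 ± 0.42; difference -2.29 ± 0.57, adjusted p = 0.011). Some further interneuron genes were at or near 0 counts in null proliferating cells. Lhx6, a factor of medial ganglionic eminence interneurons, had 1 count in each null group and Sst, somatostatin, 0 in both, while they reached 3.79 ± 4.26 and 10.2 ± 10.2 CPM in intact differentiating cells. Npy, neuropeptide Y, rose from 1 to 41 counts over the null groups (the former level was 3.34% of the latter, 95% counting interval 0.0846 to 18.6%, edgeR adjusted p = 0.02), a call lost without null proliferating replicate 1 or 4 (adjusted p = 0.05 and 0.06). It reached 2.93 ± 3.44 CPM in intact differentiating cells. Dlx6os1 rose as well (8.26, or 9.32 without null proliferating replicate 1), and Dlx1as had 1 count in the proliferating and 4.93 to 11.1 CPM in the differentiating null libraries. They overlap Dlx genes on the other strand, and without strand information their reads cannot be told from those of the Dlx genes.

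General neuronal genes rose in part. Dcx, doublecortin of migrating neurons (Entrez 13193; chromosome X, 143855842 to 143933396 in GRCm38.p6), was at 0.872, 0, 0.125 and 1.899 CPM in the null proliferating and 351, 327, 366 and 326 CPM in the null differentiating libraries, which all lay within a narrow range (8.64 ± 0.86, edgeR adjusted p = 4.1e-07, and 9.74 without null proliferating replicate 4). Tubb3, neuronal tubulin, went from 10.2, 9.74, 8.45 and 9.44 to 346, 338, 263 and 276 CPM (5.01 ± 0.58). In intact differentiating cells the same genes were at 349.7 to 1780 and 162 to 1138 CPM. Of 30 pan-neuronal genes 20 rose and 1 fell in null cells (median 1.61), and 29 rose in intact cells (median 2.61). Other risers were Celf4, an RNA-binding protein of neurons (4.56), the granin Chgb (5.58), the microtubule protein tau, Mapt (2.57), and Elavl3 (2.102). Elavl3 rose by less than in intact cells (difference -1.49 ± 0.42, adjusted p = 0.021). The member that fell was Gap43, a growth cone protein, from 359 ± 19.6 to 73.9 ± 15.3 CPM (-2.28 ± 0.36). With the 8 null libraries fitted alone 3 members fell.

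Several other genes of the pan-neuronal list stayed low in null cells. Stmn2, a stathmin of growing axons, was at 0.209, 0.0617, 0.166 and 0.255 CPM in the proliferating and 0.314, 0.4596, 0.852 and 0.725 CPM in the differentiating null libraries, where it passed no test (edgeR adjusted p = 0.46), against 736, 148, 211 and 41.7 CPM in intact differentiating libraries. Every intact differentiating library was thus far above every null one. Fitted on the 8 null libraries alone, its small rise passed the test (adjusted p = 0.0065). Rbfox1, a splicing factor, had 7 and 3 counts over the null groups and 49.01 ± 54.9 CPM in intact differentiating cells, and the adhesion molecule L1cam was at 0.593 to 0.919 against 21.1 to 418 CPM (null response 2.52 ± 1.74, adjusted p = 0.2, or 0.00046 from the 8 null libraries alone). The difference of the responses passed the test for none of the 3 (adjusted p = 0.29, 0.1 and 0.38), but did without both intact replicates 1 (0.012, 0.01 and 0.028). In intact proliferating libraries they were at 0.379 to 15.02, 0.225 to 2.08 and 0.487 to 8.24 CPM. The difference did pass for Nefl, neurofilament light chain, which was at 0.907 to 2.62 and 0.705 to 1.22 CPM in null cells and rose in intact ones (difference -3.62 ± 0.67, adjusted p = 0.0016, and -2.996 without intact differentiating replicate 1).

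Synaptic and channel genes rose less often in null than in intact cells by their counts, a difference that was not tested as such. Of 25 synapse and release genes 15 rose and 2 fell in null cells (median 0.85), against 21 and 1 in intact cells (median 2.02). Bsn, the active zone scaffold bassoon, rose from 1.73 ± 0.559 to 35.5 ± 3.67 CPM (4.33 ± 0.51). Snap25, the vesicle fusion protein, was at 3.73, 4.32, 3.83 and 4.59 CPM in the proliferating and 11.1, 10.05, 10.3 and 9.68 CPM in the differentiating null libraries, while intact differentiating libraries had 124, 35.4, 55.3 and 10.9 CPM. Its rise in null cells (1.32 ± 0.54, adjusted p = 0.041) was lost when any 1 null library was left out (adjusted p = 0.058 to 0.082). Syt1, the vesicle calcium sensor, was at 0.628 to 1.47 and 0.797 to 2.13 CPM in the null groups and passed no test. Camk2b fell by 3.07. Nrxn3, a presynaptic adhesion molecule, had 0 counts in the null proliferating libraries and 8.93, 5.48, 7.09 and 10.7 CPM in the null differentiating ones, at least 276-fold higher. Shisa9, an auxiliary subunit of AMPA receptors, had 2 counts over the null proliferating libraries, 0.272% of the differentiating level (95% counting interval 0.03299 to 0.984%), which was 6.03 to 8.13 CPM. Ly6h, a membrane-anchored protein of neurons, rose from between 0.0416 and 0.174 to between 16.7 and 44.3 CPM. Of 27 channel and receptor genes 10 rose and 6 fell (19 and 3 in intact cells), with medians of 0.79 in null and 1.62 in intact cells. Risers were Grik2, a kainate receptor (2.54 ± 0.09), and Scn8a, a sodium channel (1.47 ± 0.19). Scn2a and Scn3a, the sodium channels of immature neurons, passed no test in the fit of all libraries (5.49 to 6.45 and 2.94 to 5.96 CPM in null differentiating libraries against 8.78 to 90.2 and 10.8 to 85.8 CPM in intact ones), while Scn2a did in the 8 null libraries alone (1.09, adjusted p = 0.0036). The difference of the responses was -3.18 ± 0.92 for Scn3a (adjusted p = 0.023), and -2.55 without null proliferating replicate 4 (adjusted p = 0.067). It was -4.04 without intact proliferating and -2.401 without intact differentiating replicate 1.

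Glutamatergic and dorsal forebrain genes went both ways in null cells. Of 19 tested, 6 rose and 3 fell in null cells (median 1.38; 3 and 1 in the test against 1.5-fold), against 14 and 2 in intact cells (median 2.35). With DESeq2 11 and with a replicate block 12 rose in null cells, several of them at very low levels. Bcl11b, a subcerebral and striatal factor, rose from 6.95 ± 1.04 to 35.7 ± 4.08 CPM and Cux2, an upper layer factor, from 9.07 ± 1.74 to 23.7 ± 3.06 CPM. Eomes, the factor of intermediate progenitors, was at 0.733, 0.493, 0.832 and 0.936 CPM in the proliferating and 0.139, 0.4596, 0.319 and 0.145 CPM in the differentiating null libraries (-1.49 ± 0.63, edgeR adjusted p = 0.046). That fall was lost without null proliferating replicate 1, 3 or 4 or null differentiating replicate 1, 3 or 4 (adjusted p = 0.067 to 0.11). Eomes rose in intact cells (4.06 ± 0.59), and the difference was -5.55 ± 0.86 (adjusted p = 0.00047). Without intact proliferating replicate 1 these were 4.703 and -6.19. Tbr1, a deep layer factor, was at 0.209 to 0.447 CPM in null and 4.88 to 101 CPM in intact differentiating libraries and passed no test in null cells. Neurod6 (0.0349 to 0.681 against 24.5 to 249 CPM) and Slc17a7, the vesicular glutamate transporter of cortex (0.1704 to 0.521 against 1.47 to 20.01 CPM), did not pass it either, although both did with DESeq2 (adjusted p = 0.024 and 0.033). Axon guidance genes were mixed, with 13 of 30 higher and 8 lower in null cells and 22 and 3 in intact ones (medians 0.76 and 1.64). The netrin receptor genes Dcc (3.61) and Unc5c (6.08) rose and the semaphorin gene Sema3a fell (-2.61).

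**Figure D4:**
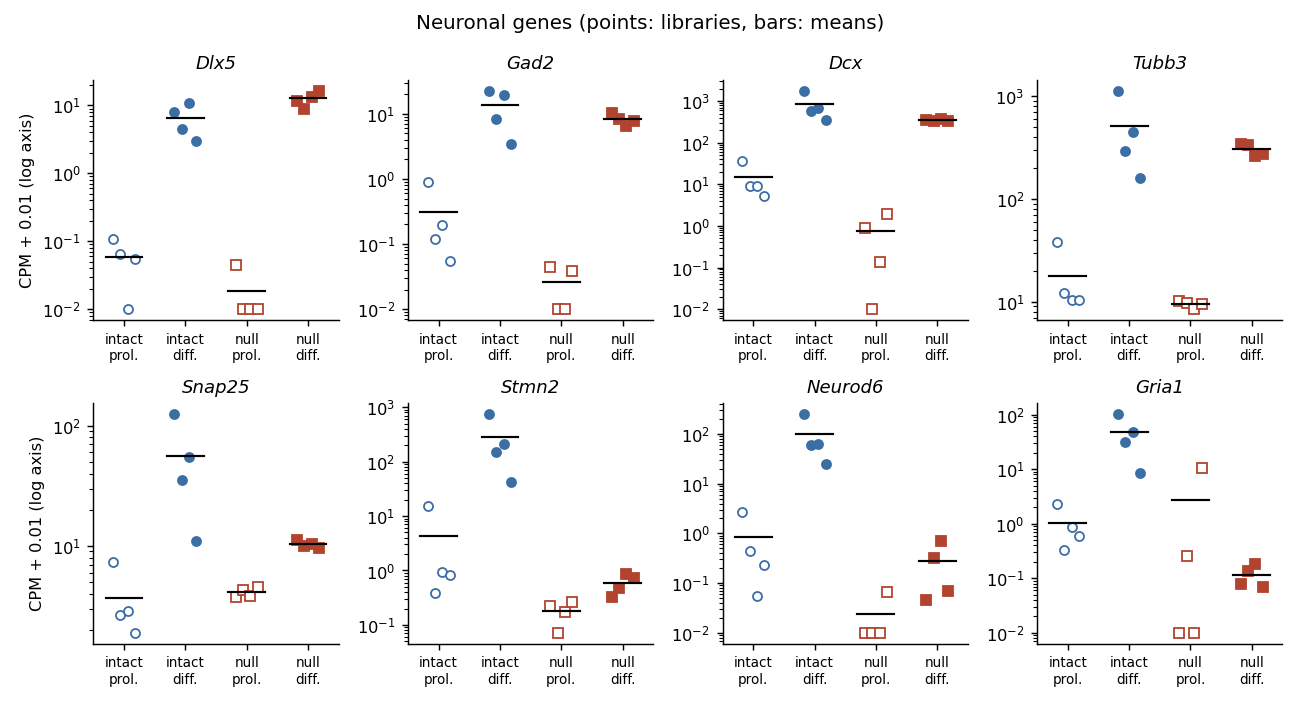
CPM (log axis, 0.01 added) in each library for 8 neuronal genes; points are libraries and bars group means. The upper panels show Dlx5, Gad2, Dcx and Tubb3, which rose in null cells to levels of the intact differentiating libraries or near them, and the lower panels Snap25, Stmn2, Neurod6 and Gria1. Stmn2, Neurod6 and Gria1 lie lower in every null than in every intact differentiating library, while for Snap25 the highest null library overlaps the lowest intact one.

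Most astrocyte genes rose, a few of them by a large factor. Gfap, the intermediate filament of astrocytes (Entrez 14580; chromosome 11, 102887336 to 102897200 in GRCm38.p6), was at 9.49, 7.83, 8.49 and 55.00 CPM in the null proliferating and 899.8, 1161, 1469 and 1573 CPM in the null differentiating libraries, against 61.8, 273, 512 and 358 CPM in the intact differentiating ones. Its log2 fold change was 5.96 ± 1.33 (edgeR adjusted p = 0.00096) in null and 4.06 ± 1.23 in intact cells, a difference that was not called (1.89 ± 1.56, adjusted p = 0.41). Intact proliferating replicate 1 stood at 69.1 CPM, and without it the intact rise was 8.26 and the difference -2.31, of the opposite sign and again not called (adjusted p = 0.19). Aqp4, the water channel of astrocyte endfeet, rose from 23.3 ± 13.9 to 649.6 ± 173 CPM and Apoe, apolipoprotein E, from 218 ± 236 to 5090 ± 673 CPM. Of 28 astrocyte genes 22 rose and 2 fell (median 0.91), against 16 and 5 in intact cells (median 0.71). In the test against 1.5-fold 14 rose. Gja1, connexin of astrocytes, rose from 118 ± 7.49 to 557 ± 142 CPM, by more than in intact cells (difference 1.402 ± 0.28, adjusted p = 0.0025). Sox9 rose from between 116 and 172 to between 340.2 and 403 CPM in null cells and was at 195 to 244 and 157 to 259 CPM in intact ones (difference 1.31 ± 0.21, adjusted p = 0.00057). The fallen members were Id3, an inhibitor of helix-loop-helix factors (-2.43 ± 0.23), and the lipid enzyme gene Acsbg1 (-1.98 ± 0.26). Null proliferating replicate 4 was the highest library of its group for Gfap, Aqp4 and Apoe (55.00, 44.03 and 572 CPM), and without it the 3 genes rose by 7.21, 5.304 and 5.67. The difference for Gfap was then 3.14, again not called (edgeR adjusted p = 0.17). The 7 astrocyte markers summed to 1434 to 2287 CPM in null proliferating and 4076 to 6617 CPM in null differentiating libraries.

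Progenitor genes went both ways in null cells. Nes, nestin, fell from 1599 ± 87.6 to 258 ± 15.6 CPM (-2.63 ± 0.12), Hes1 by 2.69 and the chromatin protein gene Hmga2 by 4.84. Pax6 (0.50) and Prom1 (1.81) rose. Sox2 rose by 0.52, a call lost without null proliferating replicate 4 or null differentiating replicate 3 (adjusted p = 0.069 and 0.058). Of 25 stem cell and radial glia genes 11 fell and 9 rose (median 0.12), against 13 and 2 in intact cells (median -0.43), and the difference was called higher for 9. Egfr, the EGF receptor, was at 572, 515, 516 and 501 CPM in the proliferating and 332, 349, 320.4 and 318 CPM in the differentiating null libraries (-0.67 ± 0.12), and fell to 43.5 to 73.3 CPM in intact ones (difference 2.104 ± 0.17, adjusted p = 3.9e-06). Vim, vimentin, fell by 0.62 in null and 1.99 in intact cells (difference 1.37 ± 0.22, adjusted p = 0.00076).

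Genes of oligodendrocyte progenitors rose in null cells. Pdgfra, the receptor of progenitors, went from 29.3, 37.1, 35.9 and 32.9 to 245, 338, 405 and 250.3 CPM in null libraries (3.199 ± 0.33, edgeR adjusted p = 7.1e-07), and from between 70.6 and 277 to between 429 and 614 CPM in intact ones. Sox10, the lineage factor, rose from 2.43 ± 0.241 to 62.7 ± 23.8 CPM and Gpr17, a receptor of committed precursors, from 2.16 ± 1.797 to 234 ± 77.8 CPM. Of 21 progenitor genes 12 rose and 2 fell (median 1.12, 1.37 in intact cells). Cspg4, the NG2 proteoglycan, was at 24.4 to 39.9 and 20.8 to 40.8 CPM and passed no test, while it fell in intact cells (difference 2.08 ± 0.28, adjusted p = 0.00021).

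Of 24 myelin and maturing oligodendrocyte genes 17 rose and 1 fell (median 3.09, 3.999 in intact cells). Mbp, myelin basic protein, rose from 0.698, 0.493, 0.416 and 0.936 to 10.8, 14.3, 41.8 and 35.4 CPM (5.25 ± 1.203), and intact differentiating libraries had 938, 1052, 2037 and 1401 CPM. Its log2 fold change in intact cells was 4.61 ± 0.97, a difference that was not called (adjusted p = 0.79), and 7.16 without intact proliferating replicate 1, and the levels reached were far below. Enpp6, an enzyme of newly formed oligodendrocytes, reached 30.03 ± 15.7 against 265 ± 101 CPM and Fa2h, a fatty acid hydroxylase of myelin lipids, 11.9 ± 2.25 against 44.9 ± 15.3 CPM. Tmem88b passed no test in null cells except when these were fitted alone (adjusted p = 0.011; 1.42 to 2.41 and 2.44 to 4.17 CPM) and rose in intact cells to 75.5 ± 21.4 CPM (difference -3.64 ± 0.83, adjusted p = 0.0059). Mobp, a myelin protein, fell in null cells from between 0.312 and 0.749 to between 0.0613 and 0.139 CPM and rose in intact ones to 2.94 to 6.497 CPM (difference -7.17 ± 1.06, adjusted p = 0.00032). Without intact proliferating replicate 1 the differences for Tmem88b and Mobp were -5.13 and -9.61. Mobp was too low to be tested when null cells were fitted alone.

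**Figure D5:**
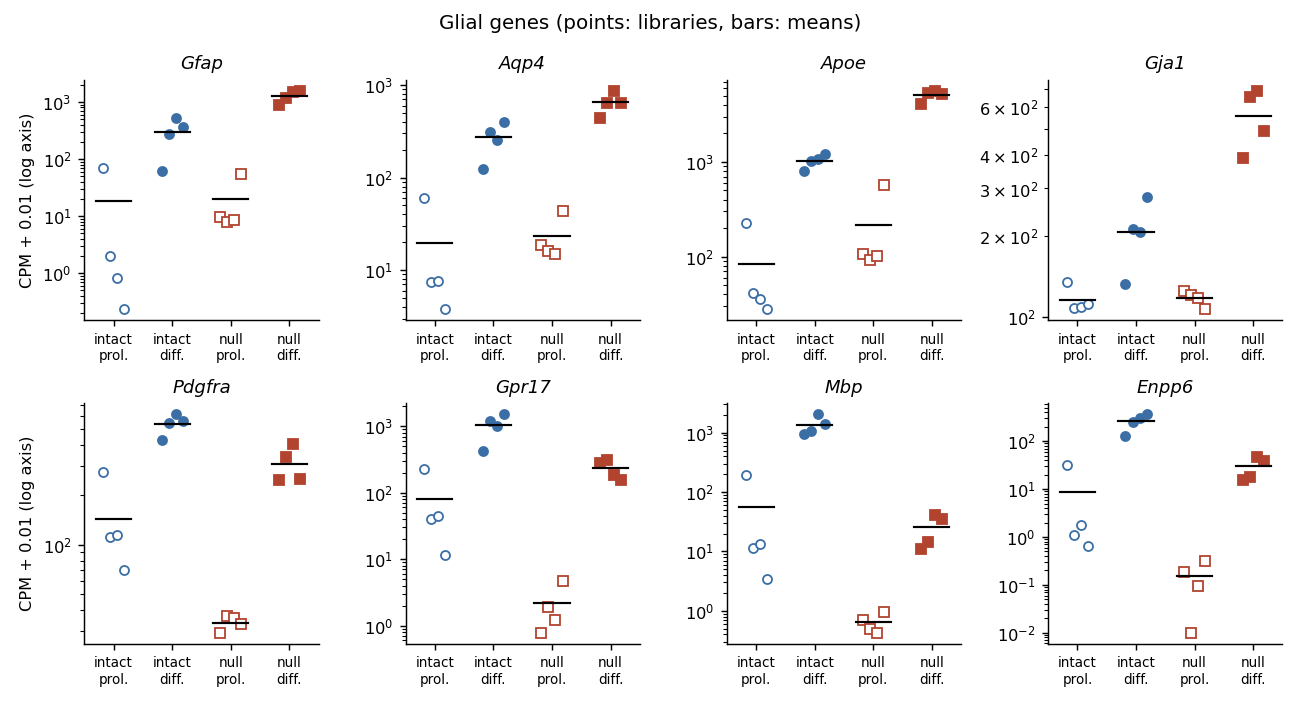
CPM (log axis, 0.01 added) in each library for 8 glial genes; points are libraries and bars group means. Gfap, Aqp4, Apoe and Gja1 are higher in every null than in every intact differentiating library, and Pdgfra, Gpr17, Mbp and Enpp6 are lower in every null than in every intact differentiating library.

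Signalling pathways changed gene by gene. Among 20 Notch pathway genes 12 rose and 3 fell (median 0.58, 0.06 in intact cells). The ligand genes Dll1 and Dll3 rose from 109.7 ± 18.5 and 51.4 ± 9.77 to 347 ± 51.96 and 273 ± 40.7 CPM, both by more than in intact cells (differences 1.61 ± 0.33 and 1.36 ± 0.40, adjusted p = 0.003 and 0.025, the latter 0.051 without null proliferating replicate 1), and the ligand gene Jag1 fell (-2.02). Of the targets, Hes5 rose (1.38 ± 0.34) and Hes1 fell. In the BMP and TGF-beta list 6 of 18 rose and 5 fell (median 0.20, 0.92 in intact cells). Its ID genes parted. Id1 went from 20.4, 22.8, 20.9 and 21.1 to 2.93, 1.69, 1.55 and 1.45 CPM in null libraries, a fall without overlap (-3.49 ± 0.42), and was at 12.8 to 47.9 and 24.4 to 47.02 CPM in intact ones (difference -4.29 ± 0.56, adjusted p = 0.00016, and -5.002 without intact proliferating replicate 1). Id2 (2.66) and Id4 (3.87) rose in null cells. Among WNT genes 9 of 18 rose and 6 fell (median 0.49, -0.12 in intact cells), with Apcdd1, a secreted pathway inhibitor, at 3.76 and the factor Tcf7 at -3.32. In the Hedgehog list these numbers were 3 and 6 of 10 (median -0.68, -0.21 in intact cells). Of 23 growth factor receptor genes 12 rose and 3 fell (median 0.57, 0.47 in intact cells), and the difference was higher for 12 and lower for 1. Kit, the stem cell factor receptor, rose from 0.523, 0.432, 0.333 and 0.567 to 51.9, 45.2, 41.5 and 43.3 CPM (6.57 ± 0.34) and so reached the intact differentiating range of 32.1 to 57.9 CPM from a far lower start (difference 5.12 ± 0.42, adjusted p = 4.5e-06). Erbb4, a neuregulin receptor, rose from 2.46 ± 1.36 to 57.00 ± 7.28 CPM, and Ntrk2, a neurotrophin receptor, from 554 ± 136 to 1859 ± 264 CPM.

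Chromatin genes went both ways. Among 14 genes of the KAT7 complexes and the MYST family, Kat7 included, 3 rose and 4 fell (median -0.09, -0.15 in intact cells). Kat6b rose (1.15 ± 0.10), as in intact cells (1.16 ± 0.10), and the complex subunit Ing4 rose from 38.2 ± 3.02 to 104 ± 2.11 CPM. Jade2 and Ing5 fell (-1.37 and -0.86). In the BAF chromatin remodelling complex, 11 of 21 subunit genes rose and 4 fell (median 0.16, 0.07 in intact cells). Actl6b, the subunit of neuronal BAF, rose from 0.105, 0.0617, 0.0832 and 0.08505 to 3.31, 3.19, 3.56 and 3.798 CPM in null libraries, against 7.31 to 80.02 CPM in intact differentiating ones, with a similar log2 fold change (5.26 ± 1.05 and 5.58 ± 0.82, the latter 7.52 without intact proliferating and 4.65 without intact differentiating replicate 1). Its progenitor counterpart Actl6a fell by 0.93. Interferon and antigen presentation genes were mixed, with 4 higher and 6 lower of 18 (median 0.04, -1.103 in intact cells). H2-K1 was at -3.03. The guanylate-binding protein gene Gbp2 was at 4.33 (5.38 without null proliferating replicate 4), from between 0.707 and 4.08 to between 18.3 and 58.6 CPM. Cell death genes gave 4 higher and 9 lower of 19 (median -0.05, -0.70 in intact cells), the risers including the BH3-only genes Bmf (2.67) and Bcl2l11 (1.34).

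A small set of genes moved in opposite directions in the 2 genotypes. With the difference also called these were 303 genes, 165 lower in null and higher in intact cells and 138 the reverse. Diras2, a small GTPase, was at 45.04, 53.1, 49.5 and 71.98 CPM in the null proliferating and 1.36, 1.47, 1.92 and 0.899 CPM in the null differentiating libraries, without overlap, and at 5.72 to 7.03 and 5.27 to 51.6 CPM in intact ones (log2 fold changes -5.26 ± 0.56 and 1.76 ± 0.48, difference -7.03 ± 0.73, adjusted p = 3.2e-05). Fblim1, a filamin-binding protein, fell in null cells from between 6.03 and 8.28 to between 0.139 and 0.192 CPM and rose in intact cells (difference -7.12 ± 0.999). Wipf3 and the heparan sulfate sulfotransferase genes Hs3st1 and Hs3st2 did likewise at null levels under 3 CPM (null log2 fold changes -3.42, -3.29 and -5.26, intact 3.09, 2.98 and 2.796). The intact rise of Hs3st2 was lost without intact differentiating replicate 1 (1.61, adjusted p = 0.083). Hs3st4, of the same family, had 7 counts in the proliferating and 0 in the differentiating null libraries, at least 3.197-fold lower, which passed no test with edgeR (adjusted p = 0.16) but did with DESeq2 and with a replicate block (adjusted p = 0.035 and 0.048), against 0.4196 to 9.79 CPM in intact differentiating ones. Eef1a2, the elongation factor of neurons and muscle, went from between 2.72 and 11.3 to between 0.349 and 1.68 CPM in null and from between 0.225 and 2.28 to between 4.76 and 100 CPM in intact cells (difference -7.91 ± 1.296, adjusted p = 0.00073). Its fall in null cells (-2.24 ± 0.85, adjusted p = 0.029) was lost without null proliferating replicate 4 or null differentiating replicate 1 or 4 (adjusted p = 0.064 to 0.14), with a log2 fold change of -1.51 without the first of these. Without intact differentiating replicate 1 the differences were -6.14 for Diras2, -5.76 for Fblim1, -6.89 for Eef1a2 and -5.795 for Sertm1, and the intact rises 0.88 for Diras2 and 2.17 for Wipf3. The difference for Eef1a2 was -9.396 without intact proliferating replicate 1 and -7.18 without null proliferating replicate 4. Without the latter library the null falls of Hs3st1 and Hs3st2 were -2.495 and -3.66, and the fall of Hs3st2 was -7.68 without null differentiating replicate 3. Sertm1, among the deepest falls in null cells, went from between 58.4 and 109 to between 0.314 and 1.53 CPM and passed no test in intact cells (difference -6.99 ± 0.95, adjusted p = 0.00021). Gria1, an AMPA receptor subunit, was at 0, 0.247, 0 and 10.5 CPM in the null proliferating and 0.0697, 0.123, 0.1704 and 0.05799 CPM in the null differentiating libraries, so the libraries overlapped and the fall there (-4.64 ± 1.58, adjusted p = 0.016) rested on null proliferating replicate 4. Without it the log2 fold change was 0.86 (adjusted p = 0.71). The intact differentiating libraries were at 101, 31.98, 47.2 and 8.54 CPM, above every null differentiating library.

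In the reverse direction, Tafa4, a secreted protein, was at 0.523, 1.29, 0.915 and 0.737 CPM in the null proliferating and 8.300, 11.1, 7.54 and 4.87 CPM in the null differentiating libraries (3.23 ± 0.38) and fell in intact cells (-2.65 ± 0.40; difference 5.88 ± 0.56, adjusted p = 1.4e-05). Adamtsl3 did so as well, at 0.139 to 0.554 CPM in null differentiating libraries, with 3 counts over the null proliferating ones. Bmp3, a BMP family ligand, had 3 counts over the null proliferating libraries and 5.47 to 8.33 CPM in the differentiating ones (the former level was 0.434% of the latter, 95% counting interval 0.0895 to 1.27%), against 0.2701 to 0.704 and 0.509 to 2.604 CPM in intact cells, which rose less (1.596 ± 0.47; difference 6.08 ± 0.88, adjusted p = 0.00025, and 6.99 without null proliferating replicate 1). Csmd3 went from 2 counts over the group to 10.6 to 14.9 CPM (0.147%, 95% counting interval 0.0177 to 0.529%) and rose less in intact cells, from between 1.34 and 6.11 to between 21.5 and 35.3 CPM (3.39 ± 0.40; difference 5.72 ± 0.99, adjusted p = 0.00076). Without intact proliferating replicate 1 the intact rise was 4.23 and the difference 4.88. Csmd3 and Bmp3 thus moved in 1 direction in both genotypes. S100a10, a calcium-binding protein, was in null cells at 46.96, 64.1, 60.3 and 83.4 CPM in the proliferating and 45.2, 71.1, 75.4 and 75.7 CPM in the differentiating libraries, which overlap, and passed no test (adjusted p = 0.81). It fell in intact cells to 3.84 to 4.98 CPM, a difference of the responses of 5.17 ± 0.38 (adjusted p = 2.3e-06).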

How the data were processed

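RNA was sequenced from 16 libraries, 4 in each of 4 groups. The authors deposited counts of reads per gene, 1 table a library, with Entrez gene identifiers. Per the submitters' processing notes bcl2fastq, featureCounts and the mm10 genome were used, with aligner and strand setting not given in the sources used here. A combined table was not used. From the counts as deposited, 27179 genes in all, 25275 were matched to RefSeq symbols of GRCm38.p6.

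Genes were kept with edgeR's filterByExpr (minimum count 10, 15177 genes) and scaled by TMM. Stage effects came from 1 quasi-likelihood fit with a mean per group over all libraries (edgeR 4.0.16, R 4.3.3), and p-values were Benjamini-Hochberg adjusted over all tested genes. It also gave the difference of the responses, an interaction contrast in that fit. Errors of log2 fold changes are standard errors. The code was tested on simulated counts. Genes and lists were chosen with earlier results of these data known. Named genes are Kat7, the largest changes with at least 5 CPM in the higher group, the members of each list with the lowest adjusted p, and list members given for their role. Some genes of the lists are not reported here by name. Alternatives were other scaling, filters, DESeq2 1.42.0, a test against 1.5-fold, a replicate block and leaving out libraries.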

Additional observations from a re-analysis of the deposited data

Results flagged for a closer look

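Levels printed in the report were searched for a library that lay far from the other 3 of its group, which chance gives in about 1 in 20 groups. This held for 28 of 223 combinations of gene and group (12.6%). In null proliferating replicate 4 the CPM values were Acta2 (122), Apoe (572), Aqp4 (44.03), Ccnd1 (2715), Cdkn1b (93.9), Clic5 (33.8), Cspg4 (39.9), Dusp6 (396), Eef1a2 (11.3), Gbp2 (4.08), Gfap (55.00), Gria1 (10.5), Ntrk2 (758), Rab26 (99.1) and Spry4 (246). In null proliferating replicate 1 they were Btg2 (139) and Gap43 (329). In null differentiating replicate 1 they were Id1 (2.93) and S100a10 (45.2). In intact proliferating replicate 1 they were Csmd3 (6.11), Eef1a2 (2.28), Gfap (69.1), Id1 (47.9), L1cam (8.24), Neurog2 (3.198), Rbfox1 (2.08) and Stmn2 (15.02), and in intact differentiating replicate 1 S100a10 (4.98).

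The response differed between the genotypes by the interaction contrast (edgeR adjusted p under 0.05) for 34 genes whose difference the report describes. On the log2 scale the null response was higher than the intact one for Gsx1 (6.15), Bmp3 (6.08), Tafa4 (5.88), Csmd3 (5.72), S100a10 (5.17), Kit (5.12), Egfr (2.104), Cspg4 (2.08), Cdkn1a (1.92), Myt1 (1.899), Cdkn1c (1.799), Dll1 (1.61), Btg2 (1.59), Mki67 (1.47), Gja1 (1.402), Vim (1.37), Dll3 (1.36), Sox9 (1.31) and Sox4 (0.72). It was lower for Eef1a2 (-7.91), Mobp (-7.17), Fblim1 (-7.12), Diras2 (-7.03), Sertm1 (-6.99), Eomes (-5.55), Id1 (-4.29), Tmem88b (-3.64), Nefl (-3.62), Scn3a (-3.18), Sp8 (-2.29), Tnc (-1.95), Asns (-1.64), Elavl3 (-1.49) and Cyp51 (-0.80).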

How the results depend on the processing

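A test against a minimum change of 1.5-fold left 2653 higher and 2497 lower genes in null cells, 3142 and 2588 in intact cells, and a difference for 359 and 407 genes. It asks for a larger change. For other lists it gave in null cells 3 risen BAF, 3 BMP and TGF-beta, 8 axon guidance, 2 glycolysis and hypoxia, 3 stem cell and 0 Hedgehog genes, and 5 fallen axon guidance, 7 stem cell, 5 contractile, 1 oligodendrocyte progenitor, 1 synapse and 0 growth factor receptor genes. Under the other alternatives run the counts over all genes stayed within 1.5 times. Leaving out 1 library gave 4913 to 5251 higher and 4968 to 5111 lower genes in null cells, 5279 to 5824 and 5148 to 5454 in intact cells, and 1615 to 2175 and 1210 to 1857 for the difference. DESeq2 moved the median of all genes in intact cells from 0.02 to 0.12. Of 164 named genes 143 kept direction and side of the threshold in null cells under all alternatives in which they could be tested. Only 150 could be tested with the 8 null libraries alone, 158 at a minimum count of 50 and 161 with DESeq2. Under all alternatives run 31 of 40 differences and 47 of 70 counts of list members stayed the same. The fall of Gria1 in null cells reversed, with -5.05 to 0.86 over the libraries left out in turn. In null cells same-numbered libraries did not deviate together: the correlation of their deviations from the group means was -0.0284 to 0.0331. In intact cells it was 0.126, 0.123, -0.231 and 0.117 for replicates 1 to 4. Intact libraries of different numbers gave -0.241 to 0.29. A replicate block gave 5191 higher and 5097 lower genes in null cells, 5329 and 5268 in intact cells, and 1648 and 1277 for the difference. In null cells it gave 12 risen glutamatergic and dorsal forebrain genes and a log2 fold change of -3.39 for Gria1 (adjusted p = 0.062). Levels near 0 counts limit what can be said of the low genes.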
